A study of Mus musculus with 8 samples.

Results

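A set of 10 genes known as markers of the Foxl1-positive subepithelial cell of the mouse gut was followed across 8 RNA sequencing libraries. The genes were Foxl1, Foxf1, Foxf2, Pdgfra, Pdpn, Sox6, F3, Edn3, Tgfbi and Dll1. They were listed by name rather than picked by a cutoff on a measured value, but with earlier results of these data known. All 10 of 10 were listed among the 24346 gene symbols of every library. The question was which of these identity genes keep their level in libraries where Foxl1 itself is near 0. Foxl1-positive cells are flat mesenchymal cells that lie directly under the epithelium, carry much PDGF receptor alpha, and send Wnt and BMP ligands to the crypt. Foxl1, Foxf1 and Foxf2 encode forkhead transcription factors of gut mesenchyme, and in the mouse gut they act downstream of hedgehog ligands released by the epithelium.

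The starting cells of every library were mesenchymal cells from the large intestine of mice. A sort kept cells without CD45, EpCAM, CD31 and Ly6C that carried gp38, the protein of Pdpn, and high PDGFRα. Of the libraries, 3 came from cells of C57BL/6 mice after 6 h with 1 mM GABA and 20 mM taurine, and 3 came from the 0 h point of the same treatment. These 6 are called the TauGABA libraries. A further library came from Foxl1cre; Cxcl12 flox/flox mice, in which Cre is driven by Foxl1 and removes the chemokine gene Cxcl12 from cells that express Foxl1, and 1 came from Cxcl12 flox/flox mice without Cre. These 2 are called the genotype libraries, and both carry the floxed Cxcl12 alleles. Age and sex, whether cells were pooled from several animals, and whether the TauGABA cells were held in culture were not stated in the labels. No untreated 6 h group was analysed here.

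Levels are in FPKM, a unit that divides the fragments of a gene by its length and by the size of the library, so they can be set beside each other between genes. Total FPKM per library ran from 513001 to 579004. A value above 0 was listed for 14818 to 14974 genes in the TauGABA libraries, for 20874 genes in the Foxl1-cre library and for 21006 genes in the control library. Read numbers are unknown, so no counting interval can be given, and values of a few hundredths of an FPKM may rest on very few fragments. Cxcl12, the floxed gene, was listed at 740 FPKM in the Foxl1-cre library and 1298 FPKM in the control library, which is 57.0% of control, and at 945 to 969 FPKM at 6 h and 860 to 916 FPKM at 0 h. Nothing states that the 3 replicates of a time are separate animals or cultures, so each p-value speaks for the spread of these 6 libraries alone, which may be technical. The TauGABA and genotype libraries differ in mouse line and treatment and may have been normalised separately, which cannot be told apart, so their levels are set side by side without a test.

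Foxl1 was near 0 in all 6 TauGABA libraries and present in both genotype libraries. The gene has a single exon on chromosome 8 (bases 121127940 to 121130644, plus strand, GRCm38). It was listed at 0.182, 0.225 and 0.191 FPKM at 6 h, at 0.193, 0.289 and 0.109 FPKM at 0 h, at 11.6 FPKM in the Foxl1-cre library and at 10.2 FPKM in the control library. The highest TauGABA value was far below the lower genotype value, and the TauGABA mean was 1.82% of the genotype mean. Ranked within each library, Foxl1 stood between percentiles 44.4 and 48.3 of all genes in the TauGABA libraries, and between 74.5 and 75.6 in the genotype libraries. These percentiles count genes listed at 0, of which the TauGABA libraries held more, so the scales differ between the sets. At 6 h, Edn3 at 0.0634 FPKM already stood at percentile 41.7, so the Foxl1 percentiles do not mark a middle level. By transcript level, the name Foxl1-positive was therefore met in the genotype libraries and not in the TauGABA libraries. A bulk level does not show how many of the sorted cells express Foxl1. The TauGABA cells are described by their gate and by Pdpn, Pdgfra and F3.

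Beside this low Foxl1, 4 of the 10 genes were kept, 3 were reduced and 3, Foxl1 included, were near 0. A gene was called kept where its TauGABA mean was at least 1 FPKM and at least 50% of its genotype mean, near 0 where it was under 1 FPKM in each of the 6 TauGABA libraries, and reduced otherwise. The kept class has no upper limit, so it also holds genes that lay higher in the TauGABA libraries. Pdgfra, Pdpn, F3 and Dll1 were kept, Foxf1, Foxf2 and Tgfbi were reduced, and Foxl1, Sox6 and Edn3 were near 0. Among 14949 genes with a genotype mean of at least 1 FPKM, 57.5% were kept, 16.7% were reduced and 25.8% were near 0. That background holds many genes of low level. Its floor is set in the genotype libraries alone, which leaves out genes low there and higher in the TauGABA libraries. The same holds for the next floor. Among the 8547 genes with at least 5 FPKM in both genotype libraries, 76.1% were kept, 20.4% were reduced and 3.55% were near 0, and of the 9 identity genes that met the same floor 3 fell in each class. Dll1 was the gene under that floor, so the 3 kept genes above it were Pdgfra, Pdpn and F3. The sort of every library selected for the proteins of Pdgfra and Pdpn. That both were kept can therefore not be read apart from the gate, and the kept counts include them.

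**Figure D1:**
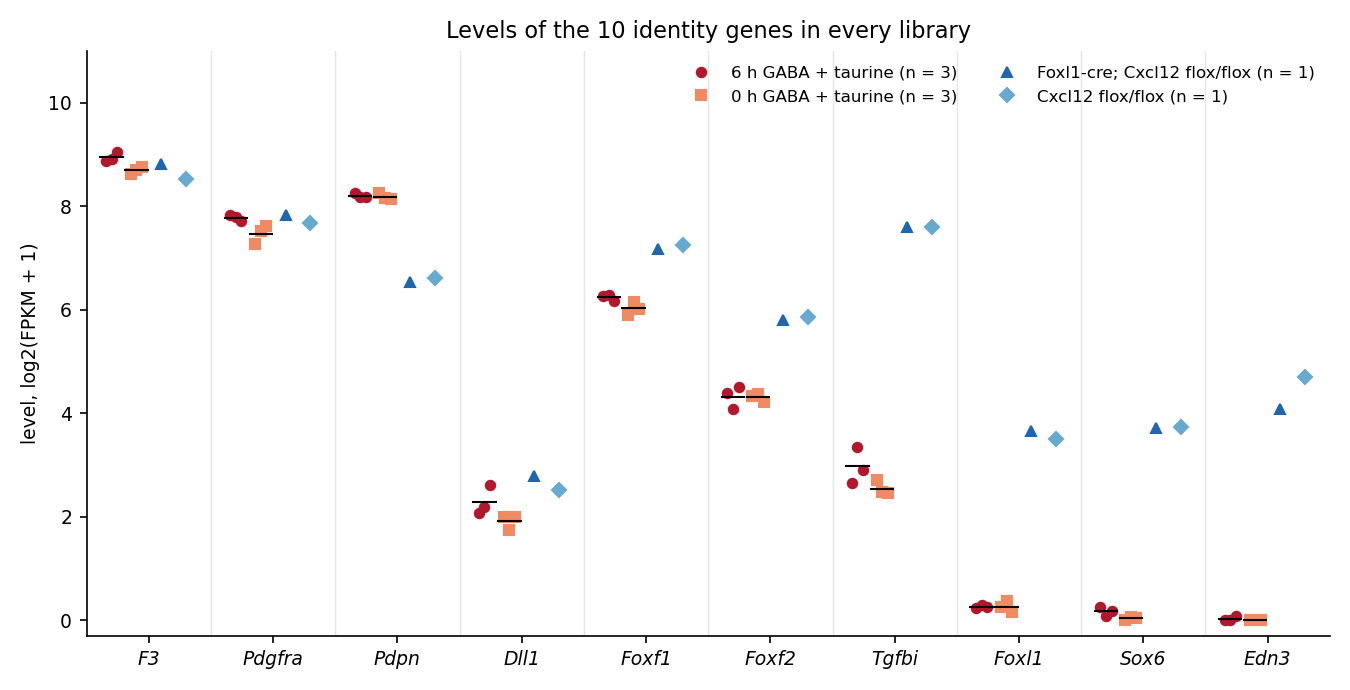
Levels of the 10 identity genes as log2(FPKM + 1) in the 6 h (red circles), 0 h (orange squares), Foxl1-cre (dark blue triangles) and control (light blue diamonds) libraries, with a black line at the mean of the 3 log2 values of each time. In the TauGABA libraries F3 and Pdgfra overlap with the genotype libraries, Pdpn lies higher, and Dll1 is kept at 63.3% of its genotype mean. Foxf1, Foxf2 and Tgfbi lie lower, and Foxl1, Sox6 and Edn3 lie near 0.

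The other transcription factors were lower in the TauGABA libraries, to very different degrees. Foxf1, on chromosome 8 (121084386 to 121088144, plus strand), stood at 75.8, 77.1 and 70.7 FPKM at 6 h, at 58.9, 69.9 and 63.6 FPKM at 0 h, at 143 FPKM in the Foxl1-cre library and at 151 FPKM in the control library. All 6 TauGABA values lay below both genotype values, at 47.1% of the genotype mean, yet Foxf1 still ranked at or above percentile 92.1 of all genes in each TauGABA library. Foxf2, on chromosome 13 (31625816 to 31631403, plus strand), stood at 19.8, 15.9 and 21.6 FPKM at 6 h, at 19.0, 19.6 and 17.6 FPKM at 0 h, at 54.6 FPKM in the Foxl1-cre library and at 56.9 FPKM in the control library. The sets did not overlap, and the TauGABA mean was 34.0% of the genotype mean.

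Sox6 encodes an HMG-box transcription factor of the SoxD group and spans 115470872 to 116038796 on the minus strand of chromosome 7. It was listed at 0.197, 0.0631 and 0.136 FPKM at 6 h and at 0.00578, 0.0440 and 0.0241 FPKM at 0 h, against 12.1 FPKM in the Foxl1-cre library and 12.3 FPKM in the control library. All 6 TauGABA values were near 0, and their mean was 0.640% of the genotype mean, a lower share than for Foxl1.

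Of the cell surface genes, Pdgfra and Pdpn, both used in the gate as proteins, were kept. Pdgfra encodes the receptor for PDGF ligands and lies on chromosome 5 (75152292 to 75198215, plus strand). Its level was 227, 219 and 208 FPKM at 6 h, 152, 183 and 195 FPKM at 0 h, 226 FPKM in the Foxl1-cre library and 202 FPKM in the control library. The sets overlapped, and the TauGABA mean was 92.3% of the genotype mean. Pdpn encodes podoplanin, a mucin-type glycoprotein that binds the platelet receptor CLEC-2, and lies on chromosome 4 (143267431 to 143299564, minus strand). Its level was 302, 288 and 289 FPKM at 6 h, 304, 284 and 281 FPKM at 0 h, 91.7 FPKM in the Foxl1-cre library and 96.1 FPKM in the control library. Pdpn was the 1 identity gene above both genotype libraries in all 6 TauGABA libraries, at 3.10 times the genotype mean, whereas 31.8% of the 14949 genes lay above in all 6 and 7.75% had a mean at least 3 times as high.

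F3 encodes tissue factor, the membrane protein that starts the extrinsic clotting cascade by binding factor VII, and lies on chromosome 3 (121723537 to 121735048, plus strand). It was the highest of the 10 in every library group, at 469, 480 and 523 FPKM at 6 h, 393, 417 and 429 FPKM at 0 h, 451 FPKM in the Foxl1-cre library and 369 FPKM in the control library. The sets overlapped, at 110% of the genotype mean, and F3 ranked at or above percentile 99.0 in every library. Dll1, a transmembrane ligand of Notch receptors, lies on chromosome 17 (15367354 to 15376872, minus strand). It stood at 3.20, 3.53 and 5.09 FPKM at 6 h, at 2.98, 2.34 and 2.96 FPKM at 0 h, at 5.90 FPKM in the Foxl1-cre library and at 4.68 FPKM in the control library. The sets overlapped for Dll1 only through 6 h replicate 3, at 5.09 FPKM. Its TauGABA mean was 63.3% of the genotype mean. That mean lay nearest to the 50% border of the kept class from above, as that of Foxf1 did from below. Dll1 shares 16.1% of its 50-base transcript windows with the overlapping gene A930024N18Rik, and since the libraries do not mark strand, reads of these genes cannot be told apart.

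The secreted products were both low. Edn3 encodes endothelin 3, the ligand of endothelin receptor B that enteric neural crest cells need to populate the mouse colon, and lies on chromosome 2 (174760619 to 174784042, plus strand). It was listed at 0, 0 and 0.0634 FPKM at 6 h and at 0 in all 3 libraries at 0 h, against 15.8 FPKM in the Foxl1-cre library and 24.9 FPKM in the control library. No fold is given, since 5 of the 6 TauGABA values are 0. None of 14 genes that every cell uses was listed at 0 in any library, and the lowest of their values was 8.56 FPKM. At such levels they cannot show how often a low gene would be listed at 0. Tgfbi encodes a secreted matrix protein that TGF-β induces and that binds integrins, and lies on chromosome 13 (56609523 to 56639562, plus strand). It stood at 5.31, 9.12 and 6.52 FPKM at 6 h, at 5.52, 4.55 and 4.45 FPKM at 0 h, at 193 FPKM in the Foxl1-cre library and at 191 FPKM in the control library. Tgfbi did not overlap between the sets, with a TauGABA mean at 3.07% of the genotype mean, but it was never near 0. Its set difference of -4.84 on log2(FPKM + 1) was the widest of the 10 genes, but with a pseudocount of 0.1 FPKM those of Edn3, Sox6 and Foxl1 were wider.

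As differences in mean log2(FPKM + 1), TauGABA minus genotype, the 10 genes ran from -4.84 for Tgfbi to 1.62 for Pdpn, with a median of -1.30. The median over all 14949 genes was -0.40. Of the 10 genes, 6 lay below both genotype libraries in all 6 TauGABA libraries, where 50.8% of the 14949 genes did so. The order of levels also differed between the sets. F3, Pdpn, Pdgfra, Foxf1 and Foxf2 led at 6 h and at 0 h, and F3, Pdgfra, Tgfbi, Foxf1 and Pdpn led in both genotype libraries. Neighbours in the TauGABA order did not overlap within a time, except that at 6 h Foxl1 overlapped with Sox6, and Sox6 with Edn3.

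**Figure D2:**
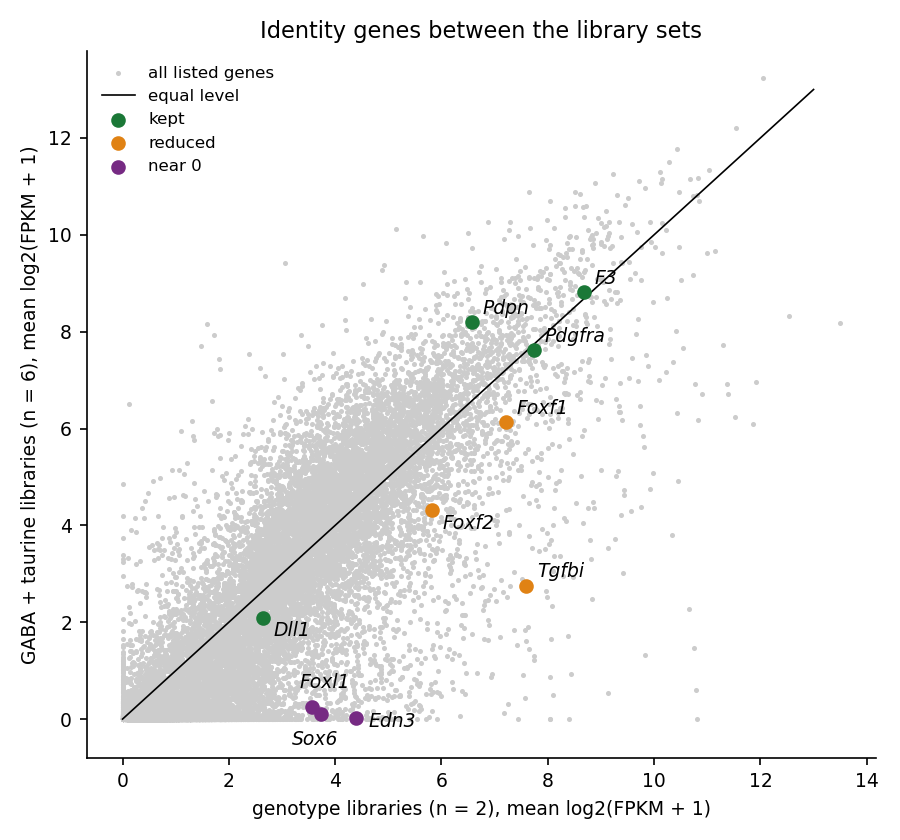
Mean log2(FPKM + 1) in the 6 TauGABA libraries (y axis) against the mean in the 2 genotype libraries (x axis) for all listed genes (grey) and the 10 identity genes, coloured by class, with a line of equal level. Pdpn lies above the line, F3 and Pdgfra lie beside it, and Foxl1, Sox6, Edn3 and Tgfbi lie well below it.

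Markers of other cell types also differed between the sets, and fewer cells of a type and less RNA per cell cannot be told apart in bulk libraries. Of 12 epithelial markers, 7 were under 1 FPKM in every 6 h library and 11 in every 0 h library. Their summed level was 4.52 to 7.94 FPKM at 6 h, 2.63 to 3.72 FPKM at 0 h, 907.7 FPKM in the Foxl1-cre library and 98.0 FPKM in the control library. The 11 leukocyte markers summed to 2.86 to 7.14 FPKM at 6 h, 1.34 to 9.91 FPKM at 0 h, 217 FPKM in the Foxl1-cre library and 176 FPKM in the control library. Of those, 10 were under 1 FPKM in every 6 h library and 9 in every 0 h library. Markers of lymphatic endothelium, glia and interstitial cells of Cajal were under 1 FPKM throughout the TauGABA libraries, whereas the 8 smooth muscle markers summed to 717.6 to 789.1 FPKM at 6 h, 715.7 to 759.7 FPKM at 0 h, 503.5 FPKM in the Foxl1-cre library and 424.7 FPKM in the control library. Acta2 and Smtn carried that sum, which does not speak for each marker. Of the 8, 4 were kept, 3 were reduced and 1 was near 0, with a median difference of -0.80. The 9 markers of CD81-positive, PDGFRA-low fibroblasts summed to 579 to 622 FPKM at 6 h, 566 to 605 FPKM at 0 h, 2811 FPKM in the Foxl1-cre library and 2592 FPKM in the control library. The 10 blood endothelial markers summed to 18 to 21.2 FPKM at 6 h, 14.4 to 19.3 FPKM at 0 h, 43.3 FPKM in the Foxl1-cre library and 70.6 FPKM in the control library, with Cldn5 at 0 in all 6 TauGABA libraries. The 7 pericyte markers summed to 12.5 to 15.9 FPKM at 6 h, 13.3 to 16.7 FPKM at 0 h, 81.5 FPKM in the Foxl1-cre library and 82.3 FPKM in the control library. The part of these cell types in the levels of the identity genes was not tested.

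Of the gate genes, those selected against as proteins were lower in the TauGABA libraries, unlike Pdgfra and Pdpn. Ptprc (CD45), Epcam and Pecam1 (CD31) were at most 0.480 FPKM in every TauGABA library. They stood at 6.85, 14.6 and 2.75 FPKM in the Foxl1-cre library, and at 4.82, 4.18 and 4.86 FPKM in the control library. Ly6c1, whose protein was gated out, was at 12.3, 12.4 and 12.1 FPKM at 6 h, 8.76, 10.5 and 9.48 FPKM at 0 h, 89.6 FPKM in the Foxl1-cre library and 141 FPKM in the control library.

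Foxl1 lies in a cluster with Foxf1 and Foxc2, and the members of this neighbourhood differed in how low they were. Counted from the Foxf1 start, the plus-strand starts of Foxc2 and Foxl1 lie 31.785 and 43.554 kb downstream, and the noncoding gene Fendrr starts 1.276 kb upstream on the minus strand. Fendrr, which in mouse embryos is needed for the heart and body wall, was listed at 2.04, 2.22 and 2.87 FPKM at 6 h, at 1.51, 1.47 and 2.32 FPKM at 0 h, at 28.5 FPKM in the Foxl1-cre library and at 29.1 FPKM in the control library. Fendrr was thus low beside a Foxf1 that was reduced but still among the higher genes. Mthfsd, which lies between Foxf1 and Foxl1, was kept, at 10.3 to 14.7 FPKM in the TauGABA libraries, 11.6 FPKM in the Foxl1-cre library and 6.75 FPKM in the control library. Foxc2 was at most 0.302 FPKM in the TauGABA libraries and at most 0.552 FPKM in the genotype libraries.

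**Figure D3:**
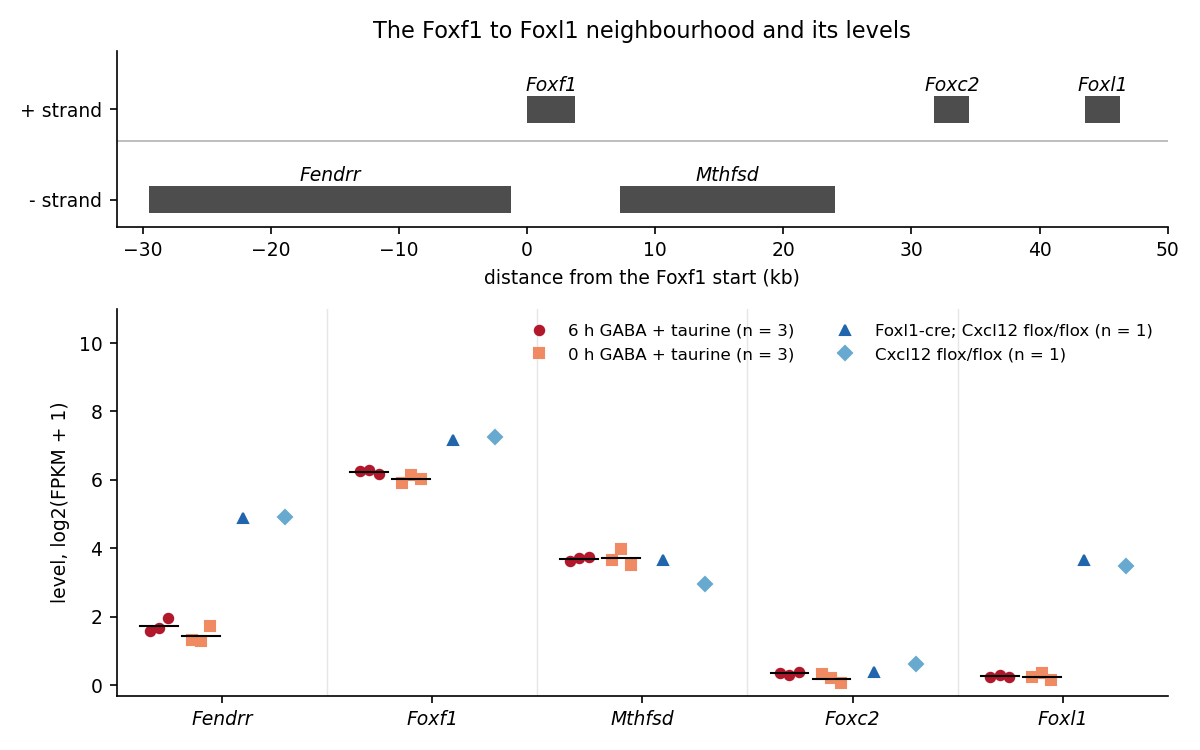
Upper panel, positions of Fendrr, Foxf1, Mthfsd, Foxc2 and Foxl1 by strand, in kb from the Foxf1 start; lower panel, their log2(FPKM + 1) in the 6 h, 0 h, Foxl1-cre and control libraries, with a line at the mean of the 3 log2 values of each time. Foxl1 and Fendrr lie far lower in the TauGABA libraries, Foxf1 less so, and Mthfsd overlaps between the sets.

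The genes whose levels lay closest to Foxl1, by Euclidean distance of log2(FPKM + 1) over the 8 libraries, were Slitrk6 at 0.234, Negr1 at 0.287, Kcng4 at 0.369, Chodl at 0.447 and Adora1 at 0.453. Each had at least 8.27 FPKM in both genotype libraries and at most 0.372 FPKM in every TauGABA library. Such values follow from the choice, since the genes were picked for closeness to Foxl1 in these same libraries. The distance compares levels, so a gene with the same order of sets at a higher level, such as Edn3, ranks farther away. Slitrk6, a neuronal transmembrane protein with leucine-rich repeats, was listed at 0.234, 0.192 and 0.0871 FPKM at 6 h, at 0.108, 0.289 and 0.0997 FPKM at 0 h, at 12.9 FPKM in the Foxl1-cre library and at 10.1 FPKM in the control library. Of the 8547 genes with at least 5 FPKM in both genotype libraries, 182 (2.13%) were under 0.5 FPKM in all 6 TauGABA libraries. Foxl1, Sox6 and Edn3 were 3 of these 182, out of 9 identity genes that met the floor.

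Other genes known from the same subepithelial cells were lower too. Of 14 with a genotype mean of at least 1 FPKM, 2 were kept, 8 were reduced and 4 were near 0, with a median difference of -3.02 beside -0.40 for all genes. The 2 of 16 genes under that floor, Dmkn and Trpa1, overlapped between the sets. Counts in this and the following lists stand beside 57.5% kept, 16.7% reduced and 25.8% near 0 among all genes above the same floor, and shares near these are no result about a list. The floor, set in the genotype libraries alone, tilts counts and medians of lists and background toward lower TauGABA levels. Bmp4, a BMP ligand, stood at 16.3 to 22.8 FPKM in the TauGABA libraries, 443 FPKM in the Foxl1-cre library and 424 FPKM in the control library. Bmp5, another ligand, stood at 1.35 to 2.76 FPKM in the TauGABA libraries, 196 FPKM in the Foxl1-cre library and 189 FPKM in the control library. Bmp7 was at most 0.846 FPKM in the TauGABA libraries, against 87.0 FPKM in the Foxl1-cre library and 85.1 FPKM in the control library. The TauGABA and genotype ranges of these 3 BMP genes did not overlap, but 50.8% of the 14949 genes also lay below both genotype libraries in all 6 TauGABA libraries.

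Hedgehog genes, which act upstream of Foxl1 and the Foxf genes in mouse gut mesenchyme, numbered 4 kept, 4 reduced and 3 near 0 of 11, with a near 0 share close to that of all genes and a median difference of -1.33. Ptch1, the hedgehog receptor and itself a target of the pathway, was at 1.17 to 1.97 FPKM in the TauGABA libraries, 21.9 FPKM in the Foxl1-cre library and 19.4 FPKM in the control library. Hhip, a decoy receptor and target, was at most 0.403 FPKM in the TauGABA libraries, against 9.02 FPKM in the Foxl1-cre library and 9.65 FPKM in the control library. Boc, a co-receptor, was kept, at 11.2 to 16.6 FPKM in the TauGABA libraries, 21.4 FPKM in the Foxl1-cre library and 17.1 FPKM in the control library.

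The endothelin receptor genes Ednrb and Ednra were low in the TauGABA libraries, where Edn3 was near 0 and Edn1 was not lower. Ednrb, the receptor for all endothelins, was at 0.299 to 0.601 FPKM in the TauGABA libraries, 55.3 FPKM in the Foxl1-cre library and 47.5 FPKM in the control library. Ednra, which prefers endothelin 1, was at 1.32 to 2.59 FPKM in the TauGABA libraries, 70.7 FPKM in the Foxl1-cre library and 69.2 FPKM in the control library. Edn1, another endothelin ligand, overlapped between the sets, at 1.04 to 2.21 FPKM in the TauGABA libraries, 1.11 FPKM in the Foxl1-cre library and 1.86 FPKM in the control library. Of 5 endothelin genes, 2 were kept, 2 were reduced and 1 was near 0, with a median of -2.83.

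Around the kept members, partner genes differed in both directions between the sets. Moesin (Msn), which ties podoplanin to the actin cortex, stood at 588 to 688 FPKM in the TauGABA libraries, 112 FPKM in the Foxl1-cre library and 101 FPKM in the control library. Cd44, a hyaluronan receptor that binds podoplanin, stood at 160 to 172 FPKM in the TauGABA libraries, 63.8 FPKM in the Foxl1-cre library and 60.5 FPKM in the control library. Of 8 podoplanin partners 6 were kept, with a median difference of 0.26, and Cd9, a tetraspanin, was reduced. In the tissue factor pathway 6 of 11 genes were kept, 4 reduced and 1 near 0, with a median of -0.82, and the kept share was close to that of all genes. Plaur, the urokinase receptor, was at 617 to 709 FPKM in the TauGABA libraries, 33.6 FPKM in the Foxl1-cre library and 25.5 FPKM in the control library. Thbd, the anticoagulant thrombomodulin, was at 59.3 to 88.9 FPKM in the TauGABA libraries, 342 FPKM in the Foxl1-cre library and 320 FPKM in the control library. F3 overlapped between the sets, whereas Plaur was far higher and Thbd far lower in the TauGABA libraries.

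In the PDGF system 2 of 5 genes were kept and 3 were near 0, with a median of -0.86. Pdgfrb, the beta receptor, was also kept but lower, at 33.1 to 42.3 FPKM in the TauGABA libraries, 62.8 FPKM in the Foxl1-cre library and 60.2 FPKM in the control library. Pdgfd, a ligand of the beta receptor, was at most 0.442 FPKM in the TauGABA libraries, against 20.3 FPKM in the Foxl1-cre library and 18.9 FPKM in the control library. Of 7 relatives of Tgfbi and their integrins, 3 were kept, 2 reduced and 2 near 0, with a median of -1.18. Postn, periostin, the closest relative of Tgfbi, was reduced, at 72.9 to 88.6 FPKM in the TauGABA libraries, 664 FPKM in the Foxl1-cre library and 633 FPKM in the control library. In the Notch pathway, which Dll1 feeds, 7 of 9 genes were kept and 2 reduced, with a median of -0.36. Hes1, a target of Notch signalling, was 1 of those 2, at 85.1 to 99.5 FPKM in the TauGABA libraries, 482 FPKM in the Foxl1-cre library and 541 FPKM in the control library.

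**Figure D4:**
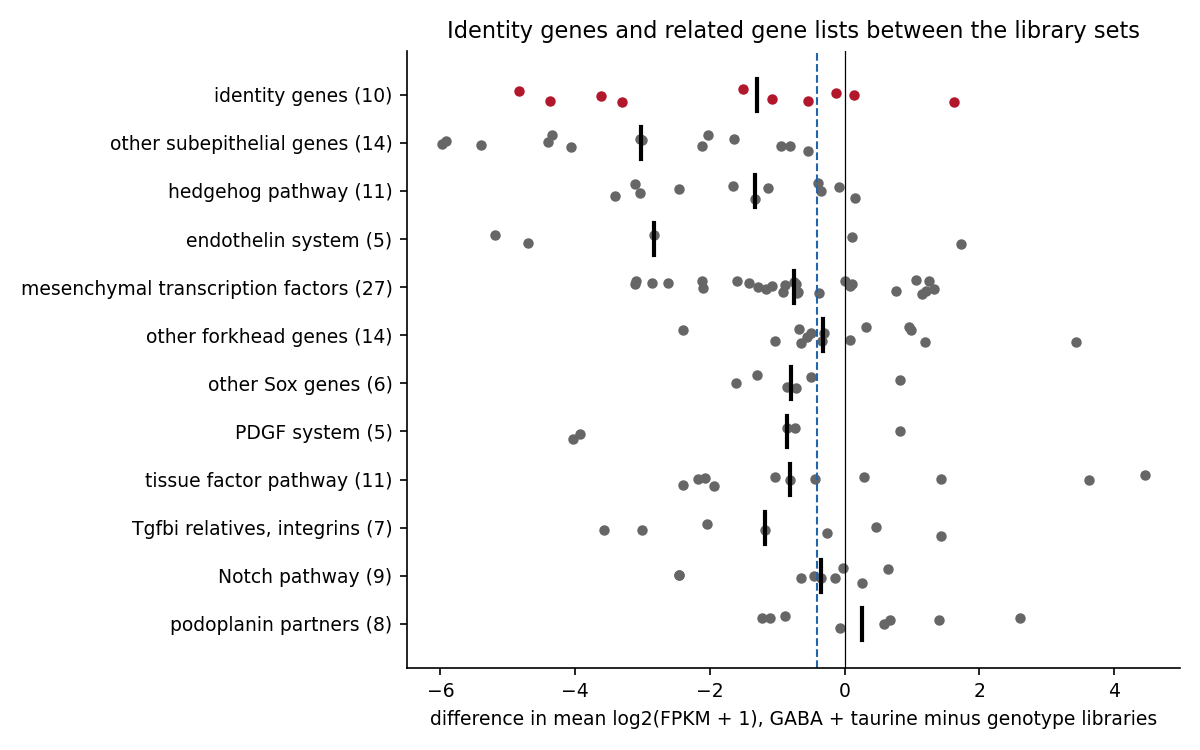
Differences in mean log2(FPKM + 1), TauGABA minus genotype libraries, for the 10 identity genes (red) and for related lists (grey), 1 point per gene with a genotype mean of at least 1 FPKM and the number of genes in brackets. Black bars are list medians and the dashed blue line is the median of all genes at -0.40; other subepithelial genes have a median of -3.02 and podoplanin partners one of 0.26.

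The promoters of 8 of the 10 genes matched RefSeq entries of GRCm38.p6; no window of Foxl1 or Foxf1 was used here. Those of 4 genes are shown to set kept genes beside low ones. F3 lies at chr3:121723287-121723536 on the plus strand, Pdpn at chr4:143299565-143299814 on the minus strand, Edn3 at chr2:174760369-174760618 on the plus strand and Tgfbi at chr13:56609336-56609585 on the plus strand. Each line gives the 250 bases before the RefSeq start, 5′ to 3′ on the strand of the gene, with matches to any of 5 searched motifs in capitals.
F3: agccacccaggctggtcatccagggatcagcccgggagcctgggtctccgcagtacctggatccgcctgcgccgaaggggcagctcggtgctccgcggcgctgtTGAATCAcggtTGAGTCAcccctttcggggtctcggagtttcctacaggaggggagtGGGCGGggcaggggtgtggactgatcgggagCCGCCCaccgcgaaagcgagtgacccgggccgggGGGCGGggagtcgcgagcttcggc
Pdpn: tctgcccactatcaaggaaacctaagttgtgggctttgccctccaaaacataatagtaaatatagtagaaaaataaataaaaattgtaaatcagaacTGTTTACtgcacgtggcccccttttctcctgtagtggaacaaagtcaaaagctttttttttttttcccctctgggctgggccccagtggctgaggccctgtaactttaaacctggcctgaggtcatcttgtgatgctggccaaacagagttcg
Edn3: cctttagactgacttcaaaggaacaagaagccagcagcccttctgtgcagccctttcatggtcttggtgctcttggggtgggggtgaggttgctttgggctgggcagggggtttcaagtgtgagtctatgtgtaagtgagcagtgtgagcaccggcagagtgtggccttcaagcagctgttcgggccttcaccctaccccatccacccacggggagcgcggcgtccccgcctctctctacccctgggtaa
Tgfbi: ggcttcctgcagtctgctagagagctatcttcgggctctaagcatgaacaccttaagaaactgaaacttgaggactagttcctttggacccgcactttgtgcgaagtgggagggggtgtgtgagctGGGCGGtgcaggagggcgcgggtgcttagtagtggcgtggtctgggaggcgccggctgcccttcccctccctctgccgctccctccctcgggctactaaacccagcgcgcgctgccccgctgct
The motifs were searched on both strands. They were the TATA box, spelled TATAAA, the GC box, spelled GGGCGG, the box whose letters are CCAAT, the element of the AP-1 family, which reads TGANTCA with N for any base, and the forkhead element, which reads TGTTTAC. The F3 window held 3 GC boxes, beginning 89, 58 and 24 bases before the start, and 2 AP-1 elements, beginning 146 and 135 bases before it, none of them overlapping. The Pdpn window held 1 forkhead element, 153 bases before the start, the Tgfbi window held 1 GC box, 124 bases before it, and the Edn3 window held no match to these letters. Of 32851 RefSeq windows of the same length, 32.7% held a GC box, 6.75% an AP-1 element, 3.17% a forkhead element, 12.4% a TATA box and 33.8% the letters CCAAT. The F3 window held 24 CpG, against 15 in Tgfbi, 7 in Edn3 and 2 in Pdpn, and the median over all windows was 6. The kept genes F3 and Pdpn lay at opposite ends of this range.

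The second comparison set the 6 h against the 0 h libraries, and no member passed the test. Without an untreated 6 h group, GABA and taurine cannot be told apart from 6 h of incubation. Of the 10 genes, 7 had a mean of at least 1 FPKM over the 6 libraries and were tested with limma, and Foxl1, Sox6 and Edn3 were under that floor. At an adjusted p of 0.05, limma called 0 of 7, with 5 of 7 at an unadjusted p under 0.05. Over all 10910 genes it called 0.238% higher and 0.312% lower at 6 h, 0.55% in either direction, and 4.45% were higher and 4.93% lower at an unadjusted p under 0.05. All 7 estimates were positive, where 49.5% of all genes were higher at 6 h, and their median was 0.25 beside -0.00 for all genes tested.

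F3 and Pdgfra had the smallest p-values. F3 averaged 490.6 ± 28.9 FPKM at 6 h and 412.8 ± 18.2 FPKM at 0 h (SD, n = 3 each), with every 6 h library above every 0 h library. Its log2 difference was 0.25 (SE 0.056), with a limma adjusted p of 0.0877. Pdgfra averaged 217.9 ± 9.89 FPKM at 6 h and 176.8 ± 22.1 FPKM at 0 h, again without overlap. Its log2 difference was 0.31 (SE 0.080), with a limma adjusted p of 0.150. F3 passed the threshold where genes under a mean of 10 FPKM were left out (limma adjusted p 0.0478), and Pdgfra passed it without 0 h replicate 3 (limma adjusted p 0.0471).

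The same order held for 2 other members, with larger adjusted p-values. Foxf1 averaged 74.5 ± 3.38 FPKM at 6 h and 64.1 ± 5.51 FPKM at 0 h, without overlap, with a log2 difference of 0.22 (SE 0.072, limma adjusted p 0.333). Dll1 averaged 3.94 ± 1.01 FPKM at 6 h and 2.76 ± 0.365 FPKM at 0 h, without overlap, with a log2 difference of 0.38 (SE 0.17, limma adjusted p 0.524) that was 0.22 without 6 h replicate 3. Thus 4 of 7 tested members had all 6 h values above all 0 h values, where 7.25% of all genes did and 8.01% had the opposite order. With 3 against 3 libraries the exact two-sided permutation test cannot give a p below 0.1, which is the value of F3, Pdgfra, Foxf1 and Dll1. The Tgfbi values overlapped between the times, at 6.98 ± 1.95 FPKM at 6 h and 4.84 ± 0.591 FPKM at 0 h, with a log2 difference of 0.43 (SE 0.17, limma adjusted p 0.445) that was 0.24 without 6 h replicate 2.

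Pdpn and Foxf2 had the smallest estimates. Pdpn averaged 293.1 ± 7.98 FPKM at 6 h and 289.5 ± 12.4 FPKM at 0 h, and its log2 difference of 0.02 had a 95% interval from -0.09 to 0.13 (limma adjusted p 0.946). Foxf2 averaged 19.1 ± 2.88 FPKM at 6 h and 18.7 ± 1.03 FPKM at 0 h, and its log2 difference of 0.02 had an interval from -0.22 to 0.25 (limma adjusted p 0.975). Their 6 h and 0 h values overlapped. Of the untested genes, Foxl1 averaged 0.20 ± 0.0229 FPKM at 6 h and 0.197 ± 0.0899 FPKM at 0 h, with overlap. Sox6 averaged 0.132 ± 0.067 FPKM at 6 h and 0.0246 ± 0.0191 FPKM at 0 h, without overlap but at levels that may rest on few fragments.

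None of the related lists held a gene called by limma in either direction. In the tissue factor pathway 0 of 10 tested genes were called and 2 had an unadjusted p under 0.05. Thbd came nearest, at 88.9, 83.4 and 75.2 FPKM at 6 h against 65.3, 59.3 and 67.4 FPKM at 0 h, with a log2 difference of 0.36 (SE 0.075, limma adjusted p 0.0618). Among mesenchymal transcription factors 0 of 26 were called and 3 had an unadjusted p under 0.05. Meis1, a homeobox factor, stood at 22.0, 21.1 and 19.1 FPKM at 6 h against 15.3, 15.1 and 15.9 FPKM at 0 h, with a log2 difference of 0.40 (SE 0.088, limma adjusted p 0.0802). The smallest limma adjusted p was 0.344 among 8 hedgehog genes, 0.321 among 3 PDGF genes, 0.595 among 4 endothelin genes and 0.666 among 10 Notch genes, with 1, 1, 0 and 0 genes at an unadjusted p under 0.05. Epithelial Krt8, a keratin, was called at 2.12, 1.75 and 2.31 FPKM at 6 h against 0.271, 0.729 and 0.188 FPKM at 0 h (limma adjusted p 0.0319). The 11 proliferation markers summed to 119.7 to 133.1 FPKM at 6 h and 135.4 to 142.9 FPKM at 0 h, without overlap, and limma called 0 of 8 tested, with 1 at an unadjusted p under 0.05. The part of these marker genes in the values of the identity genes was not tested.

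In the third comparison, the Foxl1-cre library and the control library held nearly equal levels of most identity genes. With 1 library per genotype there is no replicate check and no test. None of the 10 genes differed by 2-fold or more on log2(FPKM + 1), where 1.36% of 14949 genes were higher and 2.22% lower in the Foxl1-cre library by that much. Of the 10 genes, 5 were higher and 5 lower in the Foxl1-cre library, where 55.0% of all genes were higher and 45.0% lower, and the median difference was -0.00 beside 0.04 for all genes.

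Foxl1 itself, whose promoter drives the Cre, was at 11.6 FPKM in the Foxl1-cre library and 10.2 FPKM in the control library, a log2 difference of 0.16. Foxf1, Foxf2 and Sox6 differed by -0.08, -0.06 and -0.02, and Pdgfra and Pdpn by 0.16 and -0.07. Tgfbi differed by 0.01, Dll1 by 0.28 and F3 by 0.29. Edn3 stood farthest apart, at 15.8 FPKM in the Foxl1-cre library and 24.9 FPKM in the control library, which is 63.7% of control and a log2 difference of -0.62. The endothelin receptor genes did not follow this order, since Ednrb and Ednra were both higher in the Foxl1-cre library, by 0.21 and 0.03 on the log2 scale. Epithelial markers summed to 907.7 FPKM in the Foxl1-cre library and 98.0 FPKM in the control library. Mesothelial markers summed to 54.4 FPKM in the Foxl1-cre library and 7.57 FPKM in the control library. Krt19, also on the epithelial list, held 52.9 FPKM of that in the Foxl1-cre library and 4.61 FPKM in the control library. Lymphatic endothelial markers summed to 28.5 FPKM in the Foxl1-cre library and 11.4 FPKM in the control library. The part of these markers in the small differences above was not tested.

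**Figure D5:**
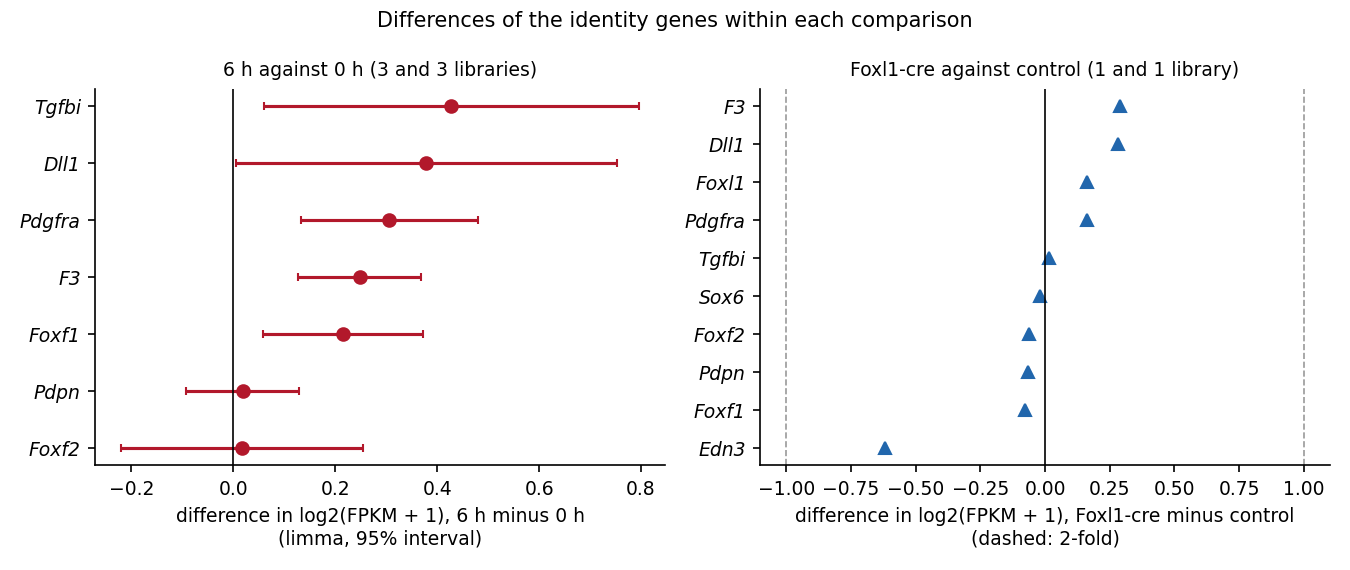
Left, differences in log2(FPKM + 1), 6 h minus 0 h, with limma 95% intervals for the 7 tested identity genes (3 libraries each); right, Foxl1-cre minus control for all 10 genes (1 library each, no error), with dashed lines at 2-fold. All 7 points at left are above 0, from 0.02 to 0.43, and at right Edn3 is the lowest at -0.62.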

How the data were processed

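RNA was measured in 8 libraries of sorted mouse colon mesenchymal cells, prepared with a SMART-Seq full-length cDNA kit that does not mark strand, per the labels' protocols. The authors deposited 1 table per library with an FPKM value for each of 24346 gene symbols. Cuffdiff 2.2.1, TopHat2 2.1.1, SAMtools 0.1.18 and Bowtie2 2.2.8 are listed in the submitters' processing notes together with the mm10 build. Scaling between libraries is not given in those notes. No count model was used, because FPKM are not counts.

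Groups were taken from the labels. The time comparison fitted log2(FPKM + 1) in R 4.3.3, using limma 3.58.1 and a prior variance that follows intensity. The 10910 genes tested had means of 1 FPKM or more over the 6 TauGABA libraries. P-values were adjusted over all of them by Benjamini-Hochberg, at a threshold of 0.05. The added 1 FPKM makes the differences of low genes appear smaller. Single members also had an exact permutation test. The set and genotype comparisons had no test, and their 2-fold and 50% limits were descriptive. The TauGABA libraries enter both the time and the set comparison. The members and lists were chosen with earlier results of these data known. Of each related list, the text could name up to 3 genes with the smallest time p and up to 3 with the largest set difference among those with at least 5 FPKM in a set. A few others, such as Mthfsd, Foxc2 and the relatives set beside a member, were named for their role. The script was tested on simulated data. Alternatives were another pseudocount, filter and scaling, no intensity trend, the replicate number as a block, and each library left out in turn. Gene positions are from GENCODE M21 on GRCm38, the build mm10 refers to, and promoter sequences from RefSeq.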

Additional observations from a re-analysis of the deposited data

How the results depend on the processing

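Pdgfra, Pdpn, F3 and Dll1 were kept at 6 h or 0 h against the control library alone. The class uses no pseudocount, and median-of-ratios scaling, which left it as it was, shifted the median of all genes by only 0.0048. With a pseudocount of 0.1 the set differences widened to -7.52 for Edn3, -6.21 for Sox6 and -5.23 for Foxl1, past -5.05 for Tgfbi. With the limit at 25% of the genotype mean 6 genes were kept, Foxf1 and Foxf2 added, and at 75% 3 were, Dll1 lost. In the time comparison the count of members called was 0, but 1 with the filter at a mean of 10 FPKM (F3), and 0 to 1 with a library left out (Pdgfra, without 0 h replicate 3). Over these alternatives the limma adjusted p ran from 0.0478 to 0.441 for F3 and from 0.0471 to 0.513 for Pdgfra. Over all genes, 26 higher and 34 lower calls became 0 and 0 without a filter and 0 and 0 without the intensity trend. With a library left out they ranged from 0 to 45 higher and from 0 to 58 lower, the most without 0 h replicate 3. With the replicate number as a block there were 14 and 9 calls and 0 members called. Same-numbered libraries did not deviate together (correlations -0.044, 0.013 and -0.028). Such correlations show no large shared deviation but cannot settle whether the numbers pair the samples, and the labels do not say. Estimates near 0 changed sign with a library left out: Foxf2 ranged from -0.071 to 0.14 (-0.01 without 6 h replicate 1, -0.03 without 0 h replicate 3) and Pdpn from -0.0042 to 0.053 (-0.0036 without 0 h replicate 3). In the genotype comparison 204 genes were 2-fold higher and 332 lower, against 384 and 766 with a pseudocount of 0.1, and 44 and 33 with a filter at 10 FPKM, and no member was among them. The cause of these shifts was not tested, except that a filter changes how many genes are tested. With a library left out, Tgfbi ranged from 0.24 (without 6 h replicate 2) to 0.58, Dll1 from 0.22 (without 6 h replicate 3) to 0.49 and Pdgfra from 0.20 (without 0 h replicate 1) to 0.38. Depth is unknown, so values under 1 FPKM carry an error that cannot be given.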

Other observations

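Other forkhead genes gave a different picture from Foxl1, Foxf1 and Foxf2. Of 14 with a genotype mean of at least 1 FPKM, 10 were kept, 3 were reduced and 1 was near 0, with a median set difference of -0.32, close to -0.40 for all genes. The kept genes include some well above their genotype level, Foxs1 among them. Foxs1, a forkhead gene known from perivascular cells, had the largest positive difference of this list, at 17.6, 24.5 and 21.8 FPKM at 6 h, 28.0, 22.6 and 27.3 FPKM at 0 h, 1.44 FPKM in the Foxl1-cre library and 1.08 FPKM in the control library. All 6 TauGABA values of Foxs1 lay far above both genotype values, where 31.8% of the 14949 genes lay above in all 6. Foxn3, a repressor, was reduced, at 6.20 to 7.70 FPKM in the TauGABA libraries, 44.2 FPKM in the Foxl1-cre library and 39.1 FPKM in the control library. In time, limma called 0 of 12 tested forkhead genes, with 3 at an unadjusted p under 0.05. Foxk2 came nearest, at 4.34, 4.56 and 6.33 FPKM at 6 h against 10.7, 12.4 and 7.18 FPKM at 0 h (log2 difference -0.85, SE 0.18, limma adjusted p 0.0705).

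Among 6 other Sox genes, 3 were kept, 1 was reduced and 2 were near 0, with a median set difference of -0.79. Sox5, the SoxD relative of Sox6, was near 0 with it, at 0.0353 to 0.176 FPKM in the TauGABA libraries, 2.58 FPKM in the Foxl1-cre library and 2.26 FPKM in the control library. Sox9, of the SoxE group, was higher, at 15.3 to 20.5 FPKM in the TauGABA libraries, 10.4 FPKM in the Foxl1-cre library and 9.11 FPKM in the control library.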
